A study of Mus musculus with 4 samples.

Results

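Glycolysis, the pentose phosphate pathway, the tricarboxylic acid (TCA) cycle and the pathways that branch from them were followed enzyme by enzyme in mouse keratinocytes with and without the glucose transporter Glut1. A set of 58 genes was taken by symbol, and 57 of them had at least 1 array row whose annotation names that gene alone, out of 22180 genes tested. Where a gene had several such rows, the brightest over the 4 arrays stood for it. Pgm1 (phosphoglucomutase) was left out because its row also names another gene.

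The cells were primary keratinocytes, the epithelial cells of the epidermis, from C57BL/6J mice aged 1 week. Wild-type (WT) cells came from mice with the floxed allele Glut1_fl/fl, and Glut1-deficient cells from Glut1_fl/fl K14 Cre mice, in which the keratin 14 promoter drives Cre in basal epidermal cells, so both genotypes carried the floxed allele and differed in Cre. Keratinocytes of 4 mice per genotype were grown in serum-free keratinocyte medium with low calcium, hydrocortisone, EGF, bovine pituitary extract and insulin, reseeded at equal number after 3 days and taken 1 day later. Each array is a pool of 2 plates of one genotype, combined at random, which left 2 arrays per genotype, and each WT sample was lysed from 1.5 times as many cells as each Glut1-deficient sample. Cre is made in cells that use the keratin 14 promoter, and which cells of the dish had lost Glut1 was not tested. Values are log2 intensities, and the number of arrays, not a depth, limits the precision.

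Glucose that enters a cell is phosphorylated by hexokinase, committed to glycolysis by phosphofructokinase-1 and split to pyruvate, which is reduced to lactate or enters mitochondria for the TCA cycle. Glucose 6-phosphate can also feed the pentose phosphate pathway, which makes NADPH and ribose, or be stored as glycogen. Many of these steps are served by several isoenzymes, which differ in tissue, compartment or regulation. Proliferating keratinocytes are known to import glucose largely through Glut1 and to turn much of it into lactate.

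On these arrays 2 of the 57 genes passed the test over all genes, and both rose in the Glut1-deficient cells. They were Pck2, the mitochondrial phosphoenolpyruvate carboxykinase that turns oxaloacetate into phosphoenolpyruvate, which rose 2.68-fold, and Idh2, the mitochondrial NADP-dependent isocitrate dehydrogenase, which rose 1.75-fold. None of the 18 genes from hexokinase to lactate dehydrogenase passed in limma, although 7 of them had an unadjusted p under 0.05. A gene is said to have risen or fallen where its limma p, adjusted by the Benjamini-Hochberg method over all genes, was under 0.05. Of all genes tested, 1.79% rose and 1.05% fell, or 2.84% in either direction, so 2 of 57 (3.51%) is close to the background. At an unadjusted p under 0.05 there were 15 of 57 members (26.3%), against 22.2% of all genes. Of these 9 were higher (11% of all genes) and 6 lower (11.2% of all genes). A positive log2 fold change was found in 28 of 57 members and in 48.4% of all genes. The members' median log2 fold change was -0.02 and that of all genes -0.01, and 53 of the 57 lay within 0.5 of 0. The median crossed 0 under some scalings, between -0.03 and 0.02 over all alternatives.

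**Figure D1:**
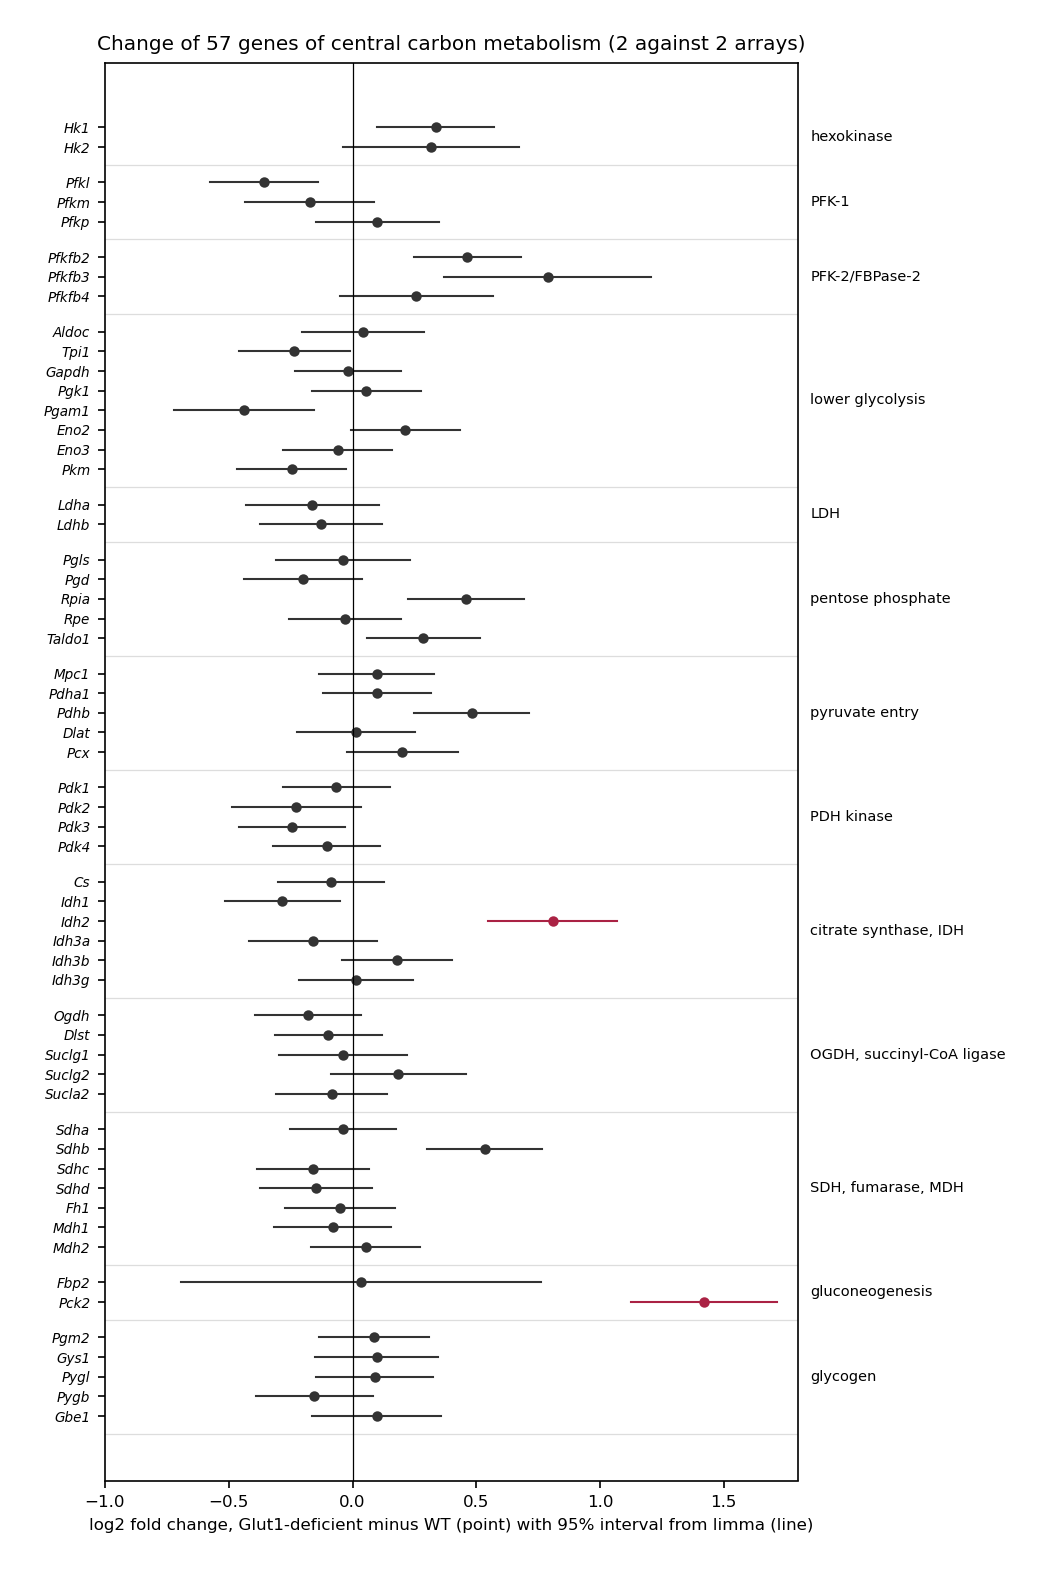
Log2 fold change of each of the 57 genes, Glut1-deficient minus WT, as a point with its 95% interval from limma as a line, ordered by pathway step with the step named at the right. Pck2 at 1.42 and Idh2 at 0.81, in red, are the members that passed; most other points lie within 0.5 of 0.

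In 45 of 57 members (78.9%) both Glut1-deficient arrays lay outside the range of the WT arrays on the same side, compared with 53.2% of all genes. They lay above in 21 members (25.5% of all genes) and below in 24 (27.7% of all genes). Among the 11090 genes above the median level, which hold 52 of the members, the shares were 78.8% and 68.2%. Small differences in the same direction on both pools were thus common on these arrays. In a bulk sample fewer cells of a type and less RNA per cell cannot be told apart.

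**Figure D2:**
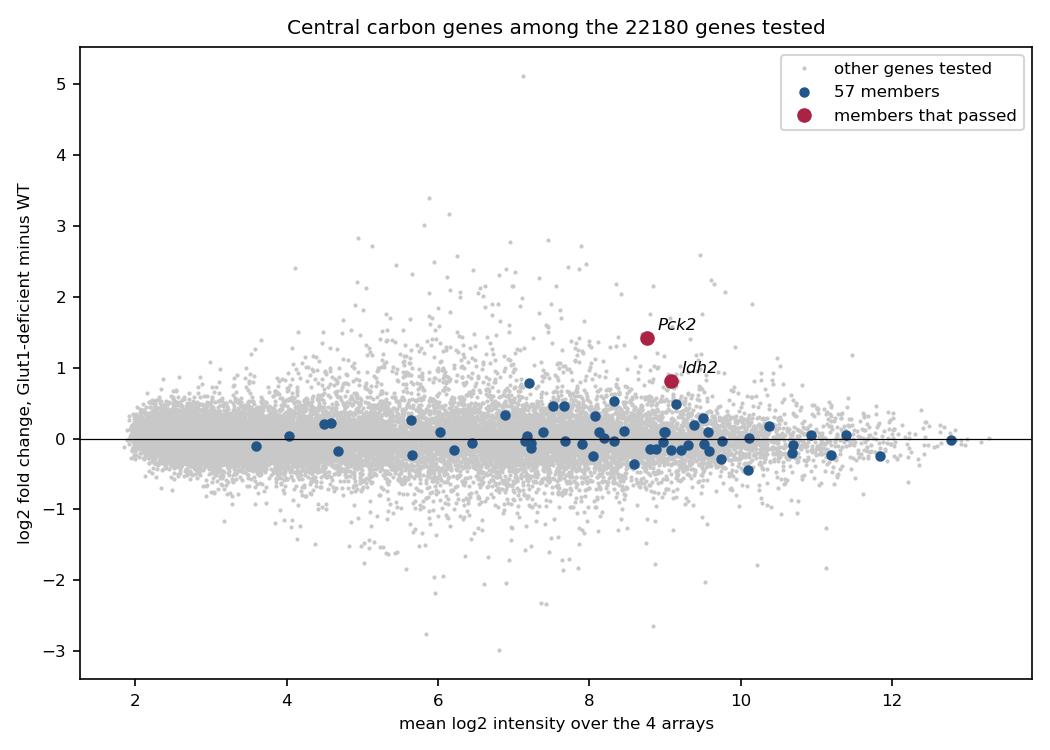
Mean log2 intensity over the 4 arrays (x) against the log2 fold change, Glut1-deficient minus WT (y), for all 22180 genes tested (grey) and the 57 members (blue, with the members that passed in red). The members lie inside the cloud of genes of similar intensity, with Pck2 at 1.42 the highest of them and Pgam1 at -0.44 the lowest.

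Some facts of the whole culture bear on every value that follows. Slc2a1, which encodes Glut1, read 11.12 and 11.05 on the WT arrays and 11.01 and 11.01 on the Glut1-deficient arrays (log2 fold change -0.07, 95% interval -0.30 to 0.15, limma adjusted p = 0.675), and the sources used here do not say where its probes lie relative to the deleted exons. The basal keratinocyte marker Krt14 read 12.56 and 12.54 on the WT arrays and 12.15 and 12.21 on the Glut1-deficient arrays. The log2 of the summed level of 6 basal markers was 13.64 and 13.61 against 13.15 and 13.26, with 0 past the test in limma (5 at an unadjusted p under 0.05). Of 10 fibroblast markers, 9 had positive log2 fold changes and 0 passed in limma (8 at an unadjusted p under 0.05). Among those 8 was Fbln1, the marker that was lower (log2 fold change -0.61) and the brightest of the 10 in WT (mean 7.99). The log2 of the summed level of all 10 was 9.28 and 9.18 in WT against 10.39 and 9.75 in Glut1-deficient samples. Of 7 melanocyte markers 4 rose (Dct, Tyrp1, Pmel and Mlana), with summed levels of 8.79 and 8.45 against 9.85 and 9.97, while the melanocyte genes Tyr and Sox10 lay between 3.02 and 4.14 on every array. Of 6 endothelial markers Kdr rose (log2 fold change 2.38), and the others did not pass, with Pecam1 at -0.35, Cdh5 at -0.10 and Vwf at 0.00; the summed level, 6.93 and 6.95 against 8.16 and 8.06, follows Kdr. Of 6 suprabasal markers, Ivl fell by 1.58 and Sbsn rose by 0.98 on the log2 scale (limma adjusted p = 0.0208 and 0.0211), with summed levels of 8.88 and 8.88 against 8.80 and 8.90. Of 9 proliferation genes tested, Mcm7 and Tyms fell and the others had negative log2 fold changes. All 9 had an unadjusted p under 0.05 in limma, and their median log2 fold change was -0.62. Summed levels of skeletal muscle markers were 8.36 and 8.49 in WT and 8.23 and 8.34 in Glut1-deficient samples, with 0 of 9 past the test in limma (0 at an unadjusted p under 0.05). The part of these markers and cell types in the enzyme values was not tested.

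At the entry to glycolysis, the hexokinases Hk1 and Hk2, which trap glucose as glucose 6-phosphate, had almost equal positive log2 fold changes. Hk1 read 6.72 and 6.71 on the WT arrays and 7.11 and 6.99 on the Glut1-deficient arrays (log2 fold change 0.34, 95% interval 0.10 to 0.57, limma adjusted p = 0.126). Hk2, the insulin- and HIF-responsive isoenzyme, read 7.95 and 7.88 against 8.40 and 8.06 (0.32, 95% interval -0.04 to 0.67, limma adjusted p = 0.269). The genotypes did not overlap for either gene, but neither passed.

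Phosphofructokinase-1, the committing step, is a tetramer of liver-type (Pfkl), muscle-type (Pfkm) and platelet-type (Pfkp) subunits. Pfkl read 8.80 and 8.74 in WT and 8.41 on both Glut1-deficient arrays (log2 fold change -0.36, 95% interval -0.58 to -0.14, limma adjusted p = 0.0998). Pfkp read 8.34 and 8.49 against 8.49 and 8.54, so its genotypes overlapped (log2 fold change 0.10). Pfkm lay at -0.17 and did not pass.

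The bifunctional enzymes Pfkfb2, Pfkfb3 and Pfkfb4 make and degrade fructose 2,6-bisphosphate, the allosteric activator of phosphofructokinase-1, and all 3 had positive log2 fold changes without passing. Pfkfb3, the isoenzyme with the highest kinase activity, read 6.62 and 6.999 in WT and 7.71 and 7.48 in Glut1-deficient cells. Its log2 fold change of 0.79 (SE 0.163, 95% interval 0.37 to 1.21) was the largest in glycolysis, and its limma adjusted p was 0.0797. The WT arrays stood further apart than the Glut1-deficient arrays, without overlap. Pfkfb2 read 7.27 and 7.32 against 7.76 and 7.75, a smaller difference with tighter replicates (log2 fold change 0.46, SE 0.084, limma adjusted p = 0.0631). Its genotypes did not overlap. Pfkfb4 read 5.44 and 5.60 against 5.66 and 5.89 (log2 fold change 0.26, limma adjusted p = 0.294).

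The 8 genes from aldolase to pyruvate kinase split into 3 with positive and 5 with negative log2 fold changes, and 0 passed in limma (3 at an unadjusted p under 0.05, all lower). Pgam1, phosphoglycerate mutase, read 10.41 and 10.22 in WT and 9.81 and 9.94 in Glut1-deficient cells (log2 fold change -0.44, 95% interval -0.72 to -0.16, limma adjusted p = 0.109), the lowest of all members. A dimmer row of Pgam1 did not share this, with a log2 fold change of 0.01. Pkm, the pyruvate kinase of most proliferating cells, read 11.94 and 11.99 against 11.69 and 11.74 (log2 fold change -0.25, limma adjusted p = 0.191). Tpi1, triose phosphate isomerase, read 11.33 and 11.29 against 11.03 and 11.12 (log2 fold change -0.23, limma adjusted p = 0.212). In each of these 3 genes both Glut1-deficient arrays were below both WT arrays. Gapdh (-0.02, 95% interval -0.23 to 0.20) and Pgk1 (0.06, 95% interval -0.17 to 0.28) lay close to 0 and did not pass. Of the other rows of Gapdh, one lay at -0.01 and the dimmest at -0.29, from 9.46 and 9.41 in WT to 9.08 and 9.20 in Glut1-deficient cells without overlap. Aldoc, Eno2 and Eno3, isoenzymes better known from brain and muscle, had log2 fold changes of 0.04, 0.21 and -0.06.

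Both subunit genes of lactate dehydrogenase, which regenerates NAD+ by reducing pyruvate, had negative log2 fold changes and neither passed. Ldha read 6.20 and 6.39 in WT and 6.09 and 6.17 in Glut1-deficient cells (log2 fold change -0.16, limma adjusted p = 0.433). Ldhb read 7.37 and 7.22 against 7.18 and 7.16 (-0.13, limma adjusted p = 0.506). Both intervals include 0, at -0.43 to 0.11 for Ldha and -0.37 to 0.12 for Ldhb. On the same arrays the monocarboxylate transporters that carry lactate went in opposite directions: Slc16a3 fell by 1.03 on the log2 scale (limma adjusted p = 0.0187) and Slc16a1 rose by 0.61 (limma adjusted p = 0.0447).

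**Figure D3:**
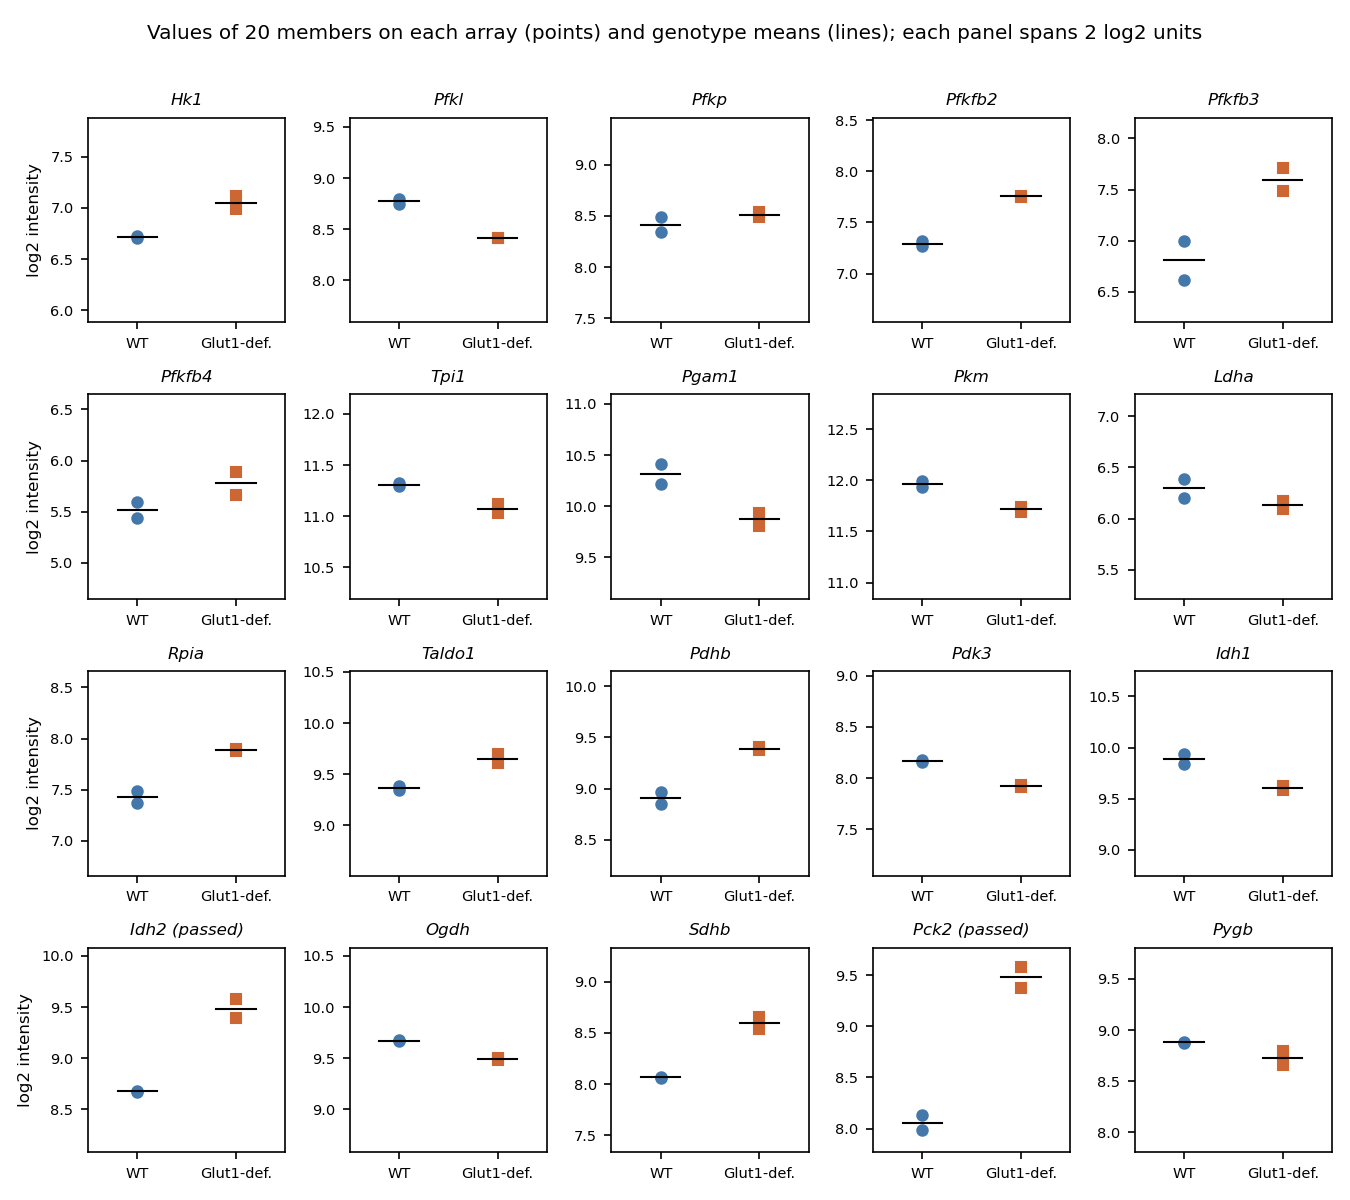
Log2 intensity of 20 members on each array, with WT arrays as blue circles, Glut1-deficient arrays as orange squares and genotype means as black lines; every panel spans 2 log2 units, so distances can be compared between panels. The genotype means stand furthest apart for Pck2, Idh2 and Pfkfb3, and Pfkp is the gene shown whose genotypes overlap.

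In the pentose phosphate pathway 0 of 5 members passed in limma (2 at an unadjusted p under 0.05). G6pdx, glucose 6-phosphate dehydrogenase, and Tkt, transketolase, were not among the genes tested. Rpia, ribose 5-phosphate isomerase of the non-oxidative branch, read 7.49 and 7.37 in WT and 7.90 and 7.88 in Glut1-deficient cells (log2 fold change 0.46, 95% interval 0.23 to 0.69, limma adjusted p = 0.0739). Taldo1, the transaldolase of that branch, read 9.34 and 9.39 against 9.69 and 9.61 (log2 fold change 0.29, limma adjusted p = 0.155). The third member from that branch, the epimerase Rpe, lay at -0.03 with overlapping arrays. The oxidative genes Pgd, 6-phosphogluconate dehydrogenase, and Pgls, the lactonase, lay at -0.20 (95% interval -0.44 to 0.04) and -0.04. A dimmer row of Pgls had a log2 fold change of 0.30.

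Pyruvate reaches the TCA cycle through the mitochondrial carrier (Mpc1) and the pyruvate dehydrogenase complex (Pdha1, Pdhb, Dlat), or through pyruvate carboxylase (Pcx), and all 5 genes had positive log2 fold changes with 0 past the test in limma (1 at an unadjusted p under 0.05). Pdhb, the beta subunit of the complex's first enzyme, read 8.85 and 8.96 in WT and 9.37 and 9.41 in Glut1-deficient cells (log2 fold change 0.48, SE 0.090, limma adjusted p = 0.0669). Its partner subunit Pdha1 lay at 0.10 (95% interval -0.12 to 0.32) and Dlat at 0.01 (95% interval -0.23 to 0.25), and both intervals reach or overlap that of Pdhb (0.25 to 0.71). Mpc1 lay at 0.10 and Pcx at 0.20. The 4 pyruvate dehydrogenase kinases, which switch the complex off, all had negative log2 fold changes, between -0.24 for Pdk3 and -0.07 for Pdk1, and 0 passed in limma (1 at an unadjusted p under 0.05). Pdk3 read 8.16 and 8.18 in WT and 7.91 and 7.94 in Glut1-deficient cells (limma adjusted p = 0.184). Pdk2 lay at -0.23 and Pdk4, which is induced by fasting in many tissues, at -0.10 from values between 3.52 and 3.65, below the median of all rows on every array. Each of the kinases had both Glut1-deficient arrays below both WT arrays, as did 27.7% of all genes.

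In the TCA cycle 1 of 18 genes passed, and 12 of the 18 had negative log2 fold changes (median -0.07). Idh2 read 8.68 and 8.67 in WT and 9.58 and 9.39 in Glut1-deficient cells. The WT arrays were nearly equal and the Glut1-deficient arrays were well above them. Its log2 fold change was 0.81 (SE 0.102, 95% interval 0.55 to 1.07, limma adjusted p = 0.0345). The cytosolic counterpart Idh1, which makes NADPH outside mitochondria, lay the other way at 9.94 and 9.84 against 9.59 and 9.62 (log2 fold change -0.28, 95% interval -0.52 to -0.05, limma adjusted p = 0.163). The NAD-dependent isocitrate dehydrogenase of the cycle itself, with subunits Idh3a, Idh3b and Idh3g, had log2 fold changes of -0.16, 0.18 and 0.01, none past the test. Citrate synthase (Cs) lay at -0.09.

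Succinate dehydrogenase, which is also complex II of the respiratory chain, had 1 subunit gene with a positive log2 fold change and 3 with negative ones, and none passed. Sdhb, its iron-sulfur subunit, read 8.07 and 8.06 in WT and 8.66 and 8.54 in Glut1-deficient cells (log2 fold change 0.53, SE 0.090, 95% interval 0.30 to 0.77, limma adjusted p = 0.0567). The flavoprotein Sdha lay at -0.04 and the membrane anchors Sdhc and Sdhd at -0.16 and -0.15, with upper interval bounds of 0.17, 0.07 and 0.08. Ogdh, the oxoglutarate dehydrogenase, read 9.67 and 9.66 against 9.50 and 9.48 (log2 fold change -0.18, limma adjusted p = 0.291). The remaining members of the cycle, namely Dlst, Suclg1, Suclg2, Sucla2, Fh1, Mdh1 and Mdh2, lay between -0.10 and 0.19 and none passed.

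Pck2 had the highest log2 fold change of the members. It read 7.98 and 8.13 in WT and 9.58 and 9.38 in Glut1-deficient cells. The lowest Glut1-deficient array was thus above the highest WT array by more than a log2 unit. The log2 fold change was 1.42 (SE 0.115, 95% interval 1.12 to 1.72, limma adjusted p = 0.0177), and 99.6% of all genes had a lower or equal one. Fbp2, the muscle fructose bisphosphatase and the other gluconeogenic member, read 4.34 and 3.67 against 4.30 and 3.78, a spread between replicates far wider than the difference between genotypes (0.03). Between the Glut1-deficient arrays, the one with the higher fibroblast marker sum (10.39 against 9.75) had the higher Pck2 value (9.58 against 9.38). Between the WT arrays the order was opposite, with sums of 9.28 and 9.18 and Pck2 at 7.98 and 8.13. The part of these cells in the Pck2 result was not tested.

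With any 1 of the 4 arrays left out, 1 residual degree of freedom remained and no gene tested passed in limma. The loss of the Pck2 and Idh2 calls was thus not particular to them. It cannot show whether they depend on a certain array. The log2 fold changes in these fits stayed between 1.32 and 1.52 for Pck2 and between 0.72 and 0.90 for Idh2. With the variance allowed to follow intensity the calls were more numerous throughout, at 13 of 57 members (22.8%) and 2671 of 22180 genes (12%). The 8 that rose in that fit were Pck2, Idh2, Pdhb, Sdhb, Pfkfb2, Rpia, Pfkfb3 and Taldo1 (limma adjusted p = 0.00035 to 0.0204). The 5 that fell in it were Pkm, Pfkl, Pgam1, Tpi1 and Idh1 (limma adjusted p = 0.0103 to 0.0213).

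Pck2 is known as a target of ATF4, a transcription factor of the amino acid and integrated stress response that binds with C/EBP partners to elements with the core TGATGNAA. The promoters of the members that rose, from 250 bases before to 50 after the start site, are shown from RefSeq (GRCm38.p6) in lower case, each on its gene's strand, with any match to that core on either strand in capitals. Pck2 lies on the plus strand at chr14:55540016-55540315 and Idh2 on the minus strand at chr7:80115301-80115600.
Pck2: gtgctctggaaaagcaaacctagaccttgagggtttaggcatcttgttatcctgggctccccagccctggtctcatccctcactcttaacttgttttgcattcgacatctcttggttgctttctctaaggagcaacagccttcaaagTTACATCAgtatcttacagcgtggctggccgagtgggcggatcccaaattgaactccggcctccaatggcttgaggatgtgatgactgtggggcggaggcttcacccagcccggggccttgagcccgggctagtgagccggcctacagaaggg
Idh2: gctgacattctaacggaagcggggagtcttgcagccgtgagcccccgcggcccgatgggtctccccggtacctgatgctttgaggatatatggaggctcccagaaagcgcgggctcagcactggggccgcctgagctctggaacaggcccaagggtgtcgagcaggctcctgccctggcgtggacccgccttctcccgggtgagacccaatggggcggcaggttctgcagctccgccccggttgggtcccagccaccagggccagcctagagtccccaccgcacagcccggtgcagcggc
The Pck2 window held 1 match, TTACATCA, which is the core on the opposite strand and begins at position -103 relative to the start site, and the Idh2 window held none. Of the 55 members with promoter windows, Pck2 was the 1 with this core (1.82%). The share was 4.51% of all 27025 genes with windows and 3.92% of the tested genes with windows. A match of these letters describes the sequence and shows no binding.

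Pfkfb2 and Pfkfb3 were searched for the E-box CACGTG, a core bound by MYC and related factors, which is a palindrome and contains the hypoxia element core ACGTG on both strands. A stretch of 60 bases around the match is shown for 1 of the 3 windows of Pfkfb2 and 1 of the 2 windows of Pfkfb3, with the E-box in capitals, at chr1:130715811-130715870 and chr2:11502111-11502170, both on the minus strand.
Pfkfb2: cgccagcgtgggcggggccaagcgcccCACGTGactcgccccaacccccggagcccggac
Pfkfb3: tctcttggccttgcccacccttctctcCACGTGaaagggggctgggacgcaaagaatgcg
The matches begin at positions -22 and -53 relative to the start sites of those windows. The E-box was found in at least 1 window of 8 of 55 members (14.5%). It was found in 8.09% of all genes with windows and in 9.22% of the tested genes with windows. The 55 members had 76 windows and all 27025 genes had 32851, and more windows per gene give more places for a match. Counted by window, the E-box was found in 13.2% of the members' windows and in 7.15% of all windows. The difference between these shares was not tested. Besides Pfkfb2 and Pfkfb3 the members with the E-box were Ldha, Ogdh, Pdk2, Fbp2, Pfkm and Pcx, and none of the 8 passed the test. The shorter core ACGTG was found in 23 of 55 members (41.8%). It was found in 21.8% of all genes with windows and in 23.8% of the tested genes with windows. By window the shares were 40.8% for the members and 19.6% for all windows, a difference that was not tested either.

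Gys1, muscle glycogen synthase, Gbe1, the branching enzyme, and Pygl, the liver phosphorylase, had log2 fold changes of 0.10, 0.10 and 0.09. Pgm2, a phosphoglucomutase, lay at 0.09. Pygb, the brain phosphorylase, read 8.89 and 8.88 in WT and 8.66 and 8.79 in Glut1-deficient cells (log2 fold change -0.15, limma adjusted p = 0.404). None of the 5 passed in limma (0 at an unadjusted p under 0.05), and their 95% intervals lay within -0.39 (Pygb) and 0.36 (Gbe1).

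Isoenzymes that serve the same step were then set against each other by their changes, as the log2 fold change of one minus that of the other. Of 15 pairs 14 could be computed, and in 12 the difference had no overlap between genotypes. Several pairs share a gene (Pfkp, Pfkfb3, Pdk1 or Pdk2), and single genes without overlap were already 53.2% of all genes and 78.9% of the members, so nothing is read from this count. With 2 against 2 arrays the exact two-sided permutation test cannot give less than 0.333, which is what each of those 12 reached (0.389 after Benjamini-Hochberg adjustment over the 14), so these are descriptions. The widest difference was between Idh1 and Idh2, at -1.09, and it stayed between -1.20 and -0.98 with any 1 array left out. Pfkfb3 exceeded Pfkfb4 by 0.53 (0.30 to 0.76 with any 1 array left out) and Pfkfb2 lay below Pfkfb3 by a difference of -0.32 (-0.49 to -0.16). Pfkl lay below Pfkp, with a difference of -0.46 (-0.56 to -0.36). The hexokinases (0.02) and the lactate dehydrogenase subunits (-0.04) were the pairs whose difference overlapped between genotypes.

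**Figure D4:**
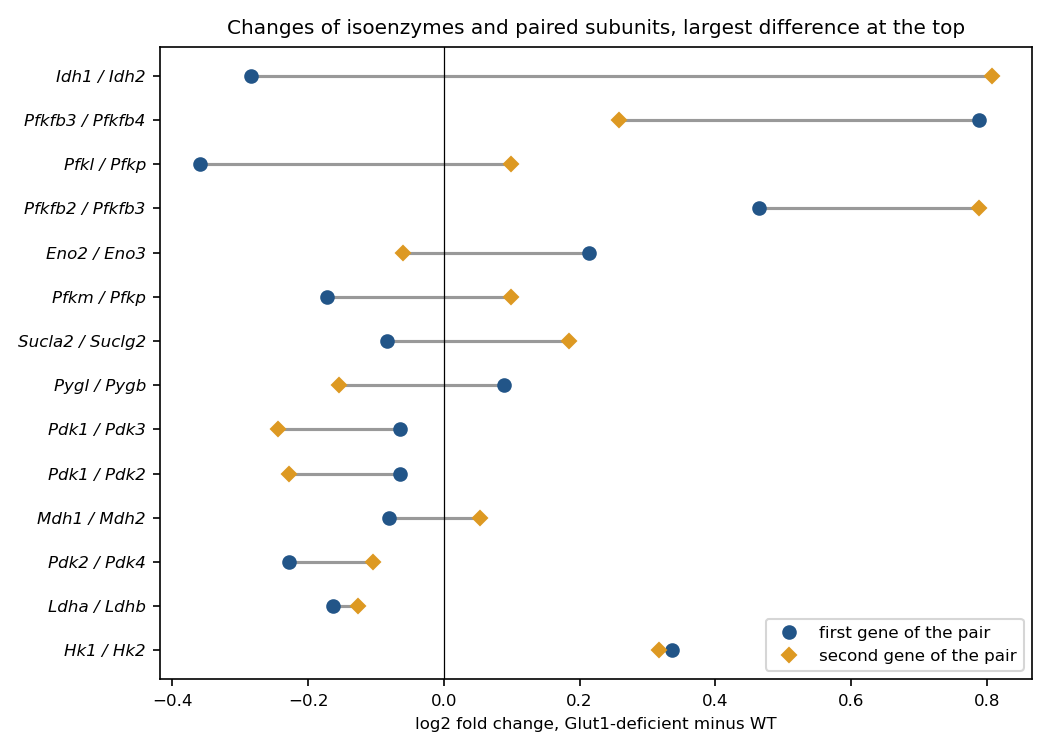
Log2 fold changes, Glut1-deficient minus WT, of both genes in each of 14 pairs of isoenzymes or paired subunits, with the first-named gene as a blue circle and the second as a yellow diamond. The gap is widest for Idh1 at -0.28 and Idh2 at 0.81 and narrowest for Hk1 at 0.34 and Hk2 at 0.32.

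Of 66 further genes around these pathways, which were listed by function, 2 rose, 0 fell and 64 did not pass in limma (12 at an unadjusted p under 0.05), with a median log2 fold change of -0.04. These shares, 3.03% past the test and 18.2% at the unadjusted threshold, stand beside 2.84% and 22.2% of all genes. Both that rose are aminotransferases that link amino acids to the TCA cycle. Gpt2, mitochondrial alanine aminotransferase, which exchanges alanine and oxoglutarate for pyruvate and glutamate, read 7.04 and 7.10 in WT and 8.45 on both Glut1-deficient arrays (log2 fold change 1.38, SE 0.085, limma adjusted p = 0.0129). Got1, the cytosolic aspartate aminotransferase, read 8.22 and 8.37 against 9.53 and 9.47 (log2 fold change 1.21, SE 0.096, limma adjusted p = 0.0175). Its mitochondrial counterpart Got2 read 11.27 and 11.25 against 11.26 and 11.28, a difference of 0.01 with overlapping arrays. The Got1 promoter window also holds the TGATGNAA core on the opposite strand, as TTGCATCA at position -102. It is shown within 60 bases at chr19:43524674-43524733 on the minus strand of GRCm38.p6, with the match in capitals, for comparison with Pck2, whose match begins at -103.
Got1: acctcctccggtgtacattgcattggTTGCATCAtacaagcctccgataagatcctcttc
In Gpt2 this core was not found in the window. With any 1 array left out neither Gpt2 nor Got1 passed, as no gene did. Their log2 fold changes were then 1.35 to 1.41 for Gpt2 and 1.13 to 1.28 for Got1.

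The other listed genes gave no further calls. Gpd1l, a glycerol 3-phosphate dehydrogenase-like gene, lay at -0.68 (limma adjusted p = 0.0536). In the list of pyruvate and TCA genes Me1, the cytosolic malic enzyme that makes NADPH, lay at 0.30 (limma adjusted p = 0.134) and Acly, ATP citrate lyase, at -0.26 (limma adjusted p = 0.175). Among glycogen and sugar genes Pgm5 lay at 0.98 (limma adjusted p = 0.0668) and Phkg2, a phosphorylase kinase subunit, at 0.41 (limma adjusted p = 0.109). The WT mean of Pgm5 was 3.63, with both WT arrays below the median of all rows, so its WT level may be background. The other glycolytic isoenzymes had 0 of 17 past the test in limma (0 at an unadjusted p under 0.05), with Bpgm, which makes 2,3-bisphosphoglycerate, at -0.23 and Gckr, the glucokinase regulator, at 0.22. Of 6 further pentose phosphate genes listed, 4 were tested and 0 passed in limma (0 at an unadjusted p under 0.05), with H6pd at 0.22 and Shpk at -0.14. G6pdx and Tkt were the listed genes that could not be tested.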

How the data were processed

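RNA was hybridised to whole-transcript gene arrays of the MoGene-2_0 type, 2 per genotype. Each row of the deposited table holds log2 values of a transcript cluster. The submitters' processing notes name RMA and Affymetrix Expression Console as the authors' tools. Their versions were not given in the sources used here. RMA sets all arrays to a common distribution, so every change is relative to the other genes. The log2 scale was read from the values, which run from 1.33 to 13.4.

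Of 41345 rows, 23521 name 1 gene in the platform annotation, 1814 several and 16010 none. The first were reduced to 22180 genes by the brightest row, and 6 members had several such rows. All 57 member symbols match the GRCm38.p6 gene table by gene identifier. Glut1-deficient minus WT was tested in R 4.3.3 using limma 3.58.1 (lmFit and eBayes; 2 residual and 2.95 prior degrees of freedom, two-sided, Benjamini-Hochberg over all genes, threshold 0.05, no filter on dim genes). The fit was tested on simulated data. No detection calls were used, so some dim values may be background. The series text has each array combine plates of different cultures, and the labels give no culture days, so a p-value here reflects only how far the pools of a genotype differ.

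The members and lists were chosen with earlier results of these data known, so no p was adjusted over a list alone and no set test was made. Array values by gene are given for members that passed, had an unadjusted p under 0.05, had the smallest p of their step or belonged to the 4 widest isoenzyme differences, and some others were added after their values were seen (Hk2, Ldhb, Fbp2 and Got2). Of the other pathway genes, those that passed and up to 2 per list with the smallest p are named, with Gpd1l added after its value was seen. Promoter motifs were likewise chosen after the values were seen. Figures were drawn with matplotlib 3.10.9.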

Additional observations from a re-analysis of the deposited data

How the results depend on the processing

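The 20 members chosen for array values by rule, and also Got1 and Gpt2, kept their direction under 7 alternatives. These were the ones that move every log2 fold change (3 scalings and each of 4 arrays left out). Where the genotypes did not overlap, as for all of these genes but Pfkp, leaving out 1 array cannot change the direction. For those genes only the 3 scalings among the 7 could have changed it. Of the other 7, 6 leave each log2 fold change as it was, and the mean of a gene's rows moves 1 of these genes, Pgam1, to -0.22. Among the 57 members, 8 rose and 5 fell when the variance followed intensity in limma, with or without robust estimation. Of the 52 members above the median level, 9 rose and 2 fell when only genes above that level were tested. At an adjusted p under 0.10, 7 of the 57 members rose and 1 fell. None rose when every row was tested (0 rose, 9 higher at an unadjusted p under 0.05), with the replicate number as a block (0 rose, 9 higher) or with an unmoderated pooled-variance statistic (0 rose, 11 higher), nor with any array left out (0 rose, 7 to 10 higher at an unadjusted p under 0.05 in limma, 1 residual degree of freedom). Over all genes the same settings gave 1344 rises and 1327 falls with the trend, 1368 and 1361 with the robust trend, 1214 and 1113 above the median level, 1024 and 831 at the looser threshold, 32 and 5 with the replicate block, and 0 and 0 in limma for every row (3368 and 3326 at an unadjusted p under 0.05), the unmoderated statistic (1844 and 1802) and each array left out (from 0 to 0; at least 1518 and 1430). These counts over all genes are out of 22180, except 11090 genes above the median level and 41345 rows where every row was tested. The member counts moved together with the counts over all genes, and the cause of these shifts was not tested. The members' median was 0.0055 with arrays centred on their median, 0.0088 with quantile normalization repeated, -0.0032 with cyclic loess, -0.024 above the median level, 0.013 with the mean of a gene's rows, and -0.032 to 0.021 with any array left out. Deviations of same-numbered arrays from their genotype means were nearly uncorrelated (r = -0.025 over genes). With 2 arrays per genotype both replicate numbers must give the same value, so it cannot show whether the numbers pair the samples.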
